A study of Rattus norvegicus with 22 samples.

Results

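Fibroblasts and myofibroblasts of the polycystic rat kidney are described here through 10 genes listed by name as known markers of these cells: Acta2, Tagln, Pdgfra, Pdgfrb, Dcn, Lum, Postn, Lox, Thy1 and Fap. All 10 were found among the 17334 genes listed, and all 10 passed the filter on low counts that left 12867 genes for testing. The RNA came from the whole left kidney of 22 male PKD/Mhm (Cy/+) rats aged 8 months, which carry the missense mutation of Anks6 on a single allele and form kidney cysts. The 6 untreated rats carry the same mutation, so no healthy kidney was compared. Of the treated groups 3 were analysed here, each dosed once a month for 6 months. ASC, human adipose-derived stromal cells, were given at 2000000 cells per injection into the peritoneum (ASC i.p., 6 rats) or into a vein (ASC i.v., 6 rats). A further 4 rats received ASC-derived CM (conditioned medium of the same cells), and its route is stated differently in the study's methods and in its series description. Human cells were injected into an animal of another species, and whether reads of those cells entered the counts of rat genes was not tested.

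Kidney fibroblasts lie between the tubules and around vessels, carry the PDGF receptors, and make the collagens and proteoglycans of the interstitium. When activated they are called myofibroblasts, take on the contractile actin of smooth muscle, and lay down the matrix that scars the kidney around cysts and damaged tubules. Several of the 10 genes are also made by other cells. Smooth muscle of vessels makes Acta2 and Tagln, pericytes and mesangial cells make Pdgfrb, and some T lymphocytes and neurons make Thy1. In RNA of a whole kidney, fewer cells of a type and less RNA per cell cannot be told apart.

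Total counts ranged from 12195663 to 14734753 per rat, with a median of 12915564, so depth differed little between rats. The least covered of the 10 genes had at least 8 counts (Fap), 16 (Lox), 29 (Lum) and 64 (Thy1) in every rat, and counting error is widest for Fap. The tissue label was checked against markers of the nephron. Summed over 10 proximal tubule genes, the level was 929 to 5443 TPM (the deposited level, corrected for transcript length and for the total of the rat) in every rat, and over 6 other nephron and podocyte genes it was 2484 to 6014 TPM. Rats 1, 3 and 5 of the ASC i.v. group stood apart, with 385, 648 and 193 TPM summed over the 6 urothelial markers found, against 2.06 to 30.1 TPM in the other 19 rats. In ASC i.v. against untreated rats edgeR called 0 of these 6 markers and DESeq2 called 5. For the 10 genes, the ASC i.v. changes are therefore also given without these 3 rats.

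Acta2, the smooth muscle actin that marks myofibroblasts, and Tagln, an actin-binding protein of contractile cells, were the contractile members. The 250 bases upstream of the RefSeq start of Acta2 (GRCr8, chr1:241172504-241172753, minus strand) are shown because contractile genes are known to be switched on through the CArG box, the binding site of serum response factor. The same stretch of Pdgfra (GRCr8, chr14:33408517-33408766, minus strand) is shown beside it, since Acta2 and Pdgfra varied little together over the rats. Both run 5′ to 3′. The CArG box is CC, then only A or T, then GG. Capitals mark each match with 1 letter off in the A or T part, searched on both strands. A letter off in the CC or GG was not counted.
Acta2: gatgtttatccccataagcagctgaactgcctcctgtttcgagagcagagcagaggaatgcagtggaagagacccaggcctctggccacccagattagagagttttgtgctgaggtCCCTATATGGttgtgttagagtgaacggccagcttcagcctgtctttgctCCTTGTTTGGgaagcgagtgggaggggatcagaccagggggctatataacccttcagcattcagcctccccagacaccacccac
Pdgfra: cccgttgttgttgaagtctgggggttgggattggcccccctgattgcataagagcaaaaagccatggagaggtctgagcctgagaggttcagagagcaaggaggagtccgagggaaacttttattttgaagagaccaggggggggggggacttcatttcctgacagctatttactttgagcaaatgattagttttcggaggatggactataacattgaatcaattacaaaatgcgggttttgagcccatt
The Acta2 stretch held 2 such matches, which begin 134 and 84 bases before the start, and the Pdgfra, Postn, Lum and Fap stretches held none. An exact CArG box was in none of these 5 stretches. Of 27457 rat promoter stretches of this length in the RefSeq table, 1.5% held an exact box. A box with at most 1 letter off in the A or T part was held by 7.97%. Among 7 smooth muscle contractile genes with a stretch in the table, 0 held an exact box or a box with 1 letter off in that part. A match of letters is a description and not a binding site, and whether such matches bear on how the genes vary between rats was not tested. Tagln, Dcn, Thy1, Lox and Pdgfrb have no entry in that table.

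Acta2 ranged from 131 to 251 TPM in untreated rats, with a median of 197 TPM. After ASC i.p. it ranged from 91.6 to 253 TPM with a median of 157 TPM, and after ASC i.v. from 57.4 to 267 TPM with a median of 160 TPM. The 4 rats given ASC-derived CM had 73.2, 78.1, 405 and 198 TPM, which holds both the highest value of all 22 rats and a pair of low ones. The treated groups thus extended below the untreated range and overlapped it. Means were 189 ± 42.8 TPM (SD, n = 6) in untreated rats, 162 ± 74.4 TPM (SD, n = 6) in the ASC i.p. group, 157 ± 81 TPM (SD, n = 6) after ASC i.v. and 189 ± 155 TPM (SD, n = 4) in the ASC-derived CM group. On the log2 scale of counts the changes against untreated rats were -0.16 (SE 0.38), -0.15 (SE 0.38) and 0.02 (SE 0.43), and the quasi-likelihood test of edgeR gave p-values of 0.92, 0.882 and 0.999, adjusted after Benjamini and Hochberg over all genes tested. Without ASC-derived CM rat 3 the last of these was -0.65.

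Tagln was the most abundant of the 10 genes. It ranged from 393 to 673 TPM in untreated rats (median 543 TPM), from 187 to 615 TPM after ASC i.p. (median 507 TPM) and from 234 to 582 TPM after ASC i.v. (median 454 TPM). With ASC-derived CM the rats had 258, 460, 789 and 684 TPM. In TPM, ASC i.p. rats 1 and 3, ASC i.v. rats 3 and 5 and ASC-derived CM rat 1 lay below every untreated rat. ASC i.v. rat 5 did so narrowly, at 388 TPM. The other treated rats lay within or above the untreated range. The fitted changes were -0.23 (SE 0.26), -0.17 (SE 0.26) and 0.07 (SE 0.29), with edgeR adjusted p-values of 0.833, 0.786 and 0.988.

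Pdgfra and Pdgfrb encode the receptors through which platelet-derived growth factors drive fibroblasts and pericytes to divide. Pdgfra ranged from 16 to 26.8 TPM in untreated rats (median 17.4 TPM), from 14.2 to 26 TPM after ASC i.p. (median 20.2 TPM) and from 11.1 to 28.9 TPM after ASC i.v. (median 18.7 TPM). The ASC-derived CM rats had 17.3, 22.1, 32.9 and 27.2 TPM. Of the untreated rats, 5 lay between 16 and 18.3 TPM, and untreated rat 6 lay above 2 of the 4 ASC-derived CM rats. The change after ASC-derived CM was 0.47 (SE 0.19, 95% interval 0.07 to 0.87), with an unadjusted edgeR p of 0.0226 and an adjusted p of 0.711. After ASC i.p. and ASC i.v. it was 0.16 (SE 0.17) and 0.11 (SE 0.17), with edgeR adjusted p-values of 0.829 and 0.807.

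Pdgfrb was spread more widely than Pdgfra. It ranged from 21.9 to 45.8 TPM in untreated rats (median 33.6 TPM), from 10.8 to 42.3 TPM after ASC i.p. (median 30.2 TPM) and from 7.01 to 40.1 TPM after ASC i.v. (median 20.3 TPM). With ASC-derived CM the rats had 12.9, 19.6, 56.5 and 50.9 TPM, with 2 rats below and 2 rats above all untreated rats. The changes were -0.20 (SE 0.41), -0.51 (SE 0.41) and 0.08 (SE 0.45), with edgeR adjusted p-values of 0.91, 0.593 and 0.994. Without the 3 ASC i.v. rats with urothelial markers the ASC i.v. change was 0.071.

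Dcn, Lum and Postn make proteins of the interstitial matrix. Dcn encodes decorin and Lum lumican, small leucine-rich proteoglycans that bind collagen fibrils, and Postn encodes periostin, a matrix protein made by activated fibroblasts. Dcn ranged from 144 to 211 TPM in untreated rats (median 166 TPM). The ASC-derived CM rats had 139, 177, 326 and 361 TPM, a pair within or just below the untreated range and a pair above it. Their change was 0.60 (SE 0.28, 95% interval 0.01 to 1.18), with an unadjusted edgeR p of 0.0455 and an adjusted p of 0.711. After ASC i.p. Dcn ranged from 100 to 249 TPM, a change of 0.09 (SE 0.25, edgeR adjusted p 0.935). After ASC i.v. it ranged from 96.9 to 310 TPM, a change of 0.18 (SE 0.25, edgeR adjusted p 0.772), and its mean was 178 ± 77.7 TPM (SD, n = 6), beside 171 ± 58.7 TPM (SD, n = 6) in the ASC i.p. group and 170 ± 27.8 TPM (SD, n = 6) in untreated rats.

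Lum was far lower than Dcn, at 3.2 to 6.31 TPM in untreated rats (median 3.89 TPM), 2 to 7.55 TPM after ASC i.p. (median 4.97 TPM) and 4.55 to 9.84 TPM after ASC i.v. (median 5.94 TPM). The 4 rats given conditioned medium had 1.7, 5.13, 14.4 and 4.47 TPM, the lowest and the highest of all 22 rats among them. The ASC i.v. change of 0.75 (SE 0.37, 95% interval -0.03 to 1.52) was the highest fitted for the 10 genes in that comparison, with an edgeR adjusted p of 0.523. Of the 6 ASC i.v. rats, 3 lay above every untreated rat. After ASC i.p. the change was 0.24 (SE 0.38, edgeR adjusted p 0.881). After ASC-derived CM it was 0.59 (SE 0.41, edgeR adjusted p 0.788), and -0.12 without rat 3 of that group.

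Postn had its highest value in an untreated rat. Untreated rats ranged from 7.51 to 42.4 TPM with a median of 10.8 TPM, and the rat at 42.4 TPM stood well above the next at 18.1 TPM. After ASC i.p. the range was 3.11 to 14.7 TPM (median 10.9 TPM), after ASC i.v. 4.66 to 23.8 TPM (median 11.9 TPM), and the ASC-derived CM rats had 5.14, 7.69, 16.3 and 14.8 TPM. The medians were close, while the means were 16.4 ± 13.3 TPM (SD, n = 6) in untreated rats and 9.49 ± 4.61 TPM (SD, n = 6) after ASC i.p. The changes of -0.71 (SE 0.44), -0.22 (SE 0.44) and -0.54 (SE 0.50) had edgeR adjusted p-values of 0.771, 0.846 and 0.872. Without untreated rat 1 the change was -0.17 with ASC i.p., 0.32 with ASC i.v. and 0.001 with ASC-derived CM.

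Lox encodes lysyl oxidase, which crosslinks collagen and elastin. It ranged from 1.79 to 6.87 TPM in untreated rats (median 5.66 TPM), from 1.82 to 4.18 TPM after ASC i.p. (median 2.72 TPM) and from 0.984 to 6.35 TPM after ASC i.v. (median 3.7 TPM). The ASC-derived CM rats had 1.81, 3.22, 5.65 and 5.82 TPM. Of the untreated rats 4 lay above every ASC i.p. rat, and the other 2 lay within the ASC i.p. range or just below it. The ASC i.p. change was -0.68 (SE 0.37, 95% interval -1.46 to 0.10) with an edgeR adjusted p of 0.771, and the ASC i.v. and ASC-derived CM changes were -0.42 (SE 0.37) and -0.20 (SE 0.41), with edgeR adjusted p-values of 0.629 and 0.961.

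Thy1 and Fap encode surface proteins. Thy1, also made by some T lymphocytes and neurons, marks many fibroblasts, and Fap encodes fibroblast activation protein, a protease of activated fibroblasts. Thy1 ranged from 12.9 to 40.5 TPM in untreated rats (median 25.2 TPM), from 9.48 to 33.1 TPM after ASC i.p. (median 20 TPM) and from 5.59 to 28.2 TPM after ASC i.v. (median 13.8 TPM). The ASC-derived CM rats had 8.9, 13.3, 24.3 and 38.3 TPM. The untreated rats themselves lay apart, with 2 at 12.9 and 13.9 TPM and 2 at 39.4 and 40.5 TPM. The ASC i.v. change was -0.64 (SE 0.41, edgeR adjusted p 0.542), but -0.10 without the 3 rats with urothelial markers, -0.17 with the animal number as a covariate and -0.21 with 1 surrogate variable. The others were -0.28 (SE 0.41) for ASC i.p. and -0.27 (SE 0.46) for ASC-derived CM (edgeR adjusted p 0.867 and 0.949). Fap was the least abundant of the 10 genes, at 0.603 to 1.37 TPM in untreated rats and 0.36 to 1.89 TPM in all 22 rats. Its changes of 0.17 (SE 0.35), 0.02 (SE 0.35) and 0.12 (SE 0.39) had edgeR adjusted p-values of 0.907, 0.984 and 0.982.

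**Figure D1:**
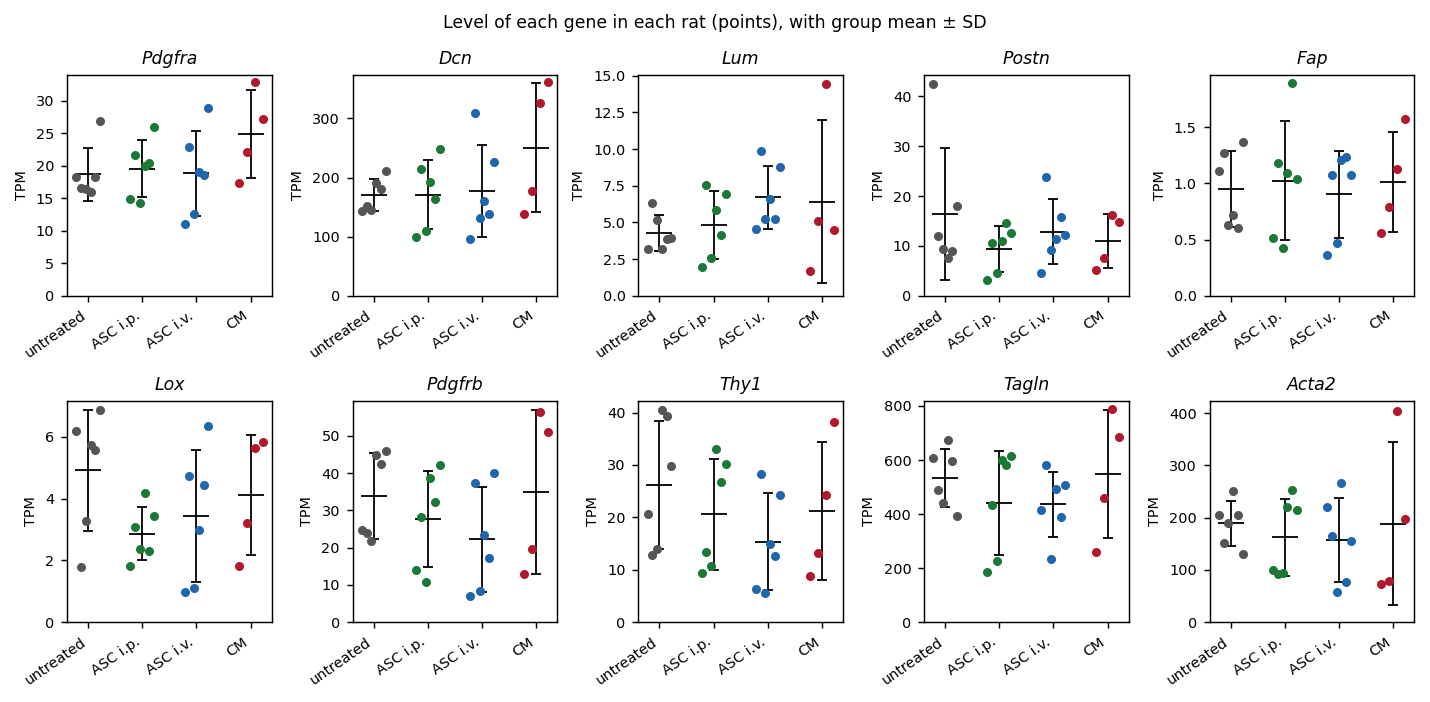
Level in TPM of each of the 10 genes (1 panel per gene, linear axis from 0) in each rat, by group, with points for rats and the bar for the group mean ± SD. In every panel the treated rats overlap the untreated rats, as for Pdgfra with 16 to 26.8 TPM in untreated rats and 17.3 to 32.9 TPM after ASC-derived CM.

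By mean TPM over all 22 rats the order was Tagln, Dcn, Acta2, Pdgfrb, Thy1, Pdgfra, Postn, Lum, Lox and Fap. Most neighbours in this order kept it in nearly every rat, with Tagln above Dcn, Acta2 above Pdgfrb, Pdgfrb above Thy1, Postn above Lum and Lox above Fap in all 22 rats, and Pdgfra above Postn in 20. Dcn exceeded Acta2 in 12 of 22 rats and Thy1 exceeded Pdgfra in 9, so these neighbours did not differ beyond their spread. Lum exceeded Lox in 16 of 22 rats.

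No change in any of the 10 genes passed adjustment after any treatment. For all 3 treatments against untreated rats, and for ASC i.v. against ASC i.p., edgeR called 0 of the 10 genes and 0% of all 12867 genes at an adjusted p under 0.05, with a lowest adjusted p among the 10 genes of 0.771 with ASC i.p., 0.523 with ASC i.v., 0.711 with ASC-derived CM and 1 between the ASC routes At an unadjusted p under 0.05 the 10 genes gave 0 after ASC i.p. against 3.89% of all genes, 0 after ASC i.v. against 8.81%, 2 (Pdgfra and Dcn) after ASC-derived CM against 6.6%, and 0 in ASC i.v. against ASC i.p. against 2.18%. These small counts moved with the rats and settings used. The shares of all genes above are those of the main fit. No such share is given for the other fits below, so their counts cannot be read against it. With 1 surrogate variable the count was 2 after ASC i.p. and 1 between the ASC routes. After ASC i.v. the count was 3 (Pdgfra, Dcn and Lum) without the 3 rats with urothelial markers and 3 with 1 surrogate variable. After ASC-derived CM it was 0 without rat 3 of that group, 0 without rat 4 and 0 on TPM, 1 without untreated rat 1, 2, 3 or 5, 3 without ASC-derived CM rat 1, and 4 with 1 surrogate variable or with the proximal tubule markers as a covariate. A test for any difference between the 4 groups called 0 of the 10 genes and 0.0855% of all genes, and at an unadjusted p under 0.05 it gave 0 of the 10 genes and 4.11% of all genes. That unadjusted count was 4 with 1 surrogate variable and 2 with the proximal tubule markers as a covariate, with no share of all genes given beside it. DESeq2 called none of the members in these 4 comparisons either, and it called 0, 28, 4 and 24 of 15266 genes. No gene of the 10 had treated rats wholly apart from untreated rats, where 0.14% of all genes did after ASC i.p., 0.179% with ASC i.v. and 1.42% with ASC-derived CM, and none of the 10 separated the ASC i.v. from the ASC i.p. rats, where 0.0544% of all genes did.

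The direction of the fitted changes was mixed. After ASC i.p. 4 of the 10 genes were fitted higher and 6 lower, with a median log2 change of -0.18 against -0.01 over all genes. After ASC i.v. the counts were again 4 and 6, with a median of -0.16 against -0.01. After ASC-derived CM they were 7 higher and 3 lower, with a median of 0.08 against 0.00 over all genes. The 3 comparisons share the untreated rats. Between the ASC routes 6 genes were fitted higher after i.v. and 4 lower, from -0.36 for Thy1 to 0.51 for Lum, each with an edgeR adjusted p of 1. Without ASC i.v. rats 1, 3 and 5 the ASC i.v. counts turned to 9 higher and 1 lower with a median of 0.13, and 0 genes were called. The log2 changes against untreated rats were then 1.05 for Lum, 0.55 for Dcn, 0.39 for Pdgfra, 0.30 for Fap, 0.16 for Acta2, 0.10 for Tagln, 0.071 for Pdgfrb, 0.065 for Postn, 0.01 for Lox and -0.10 for Thy1, with a lowest edgeR adjusted p of 0.998. Against ASC i.p. rats 10 genes were then higher and 0 lower, with a median of 0.32 in place of 0.03. With 1 surrogate variable 7 genes were fitted higher and 3 lower after ASC i.p. (median 0.20) and after ASC i.v. (median 0.23), and all 10 higher after ASC-derived CM (median 0.40). With the animal number as a covariate the counts were 6 and 4 after ASC i.p., 5 and 5 after ASC i.v. and 6 and 4 after ASC-derived CM. The direction over the 10 genes thus depended on the fit. The 95% intervals of the log2 changes were wide, reaching from -1.63 to 0.21 for Postn after ASC i.p. and from -0.20 to 0.52 for Pdgfra, the gene with the narrowest interval. On TPM values, where the median of all genes itself lay at -0.10, -0.12 and -0.07 in the 3 comparisons with untreated rats, 3, 1 and 4 of the 10 genes were fitted higher.

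**Figure D2:**
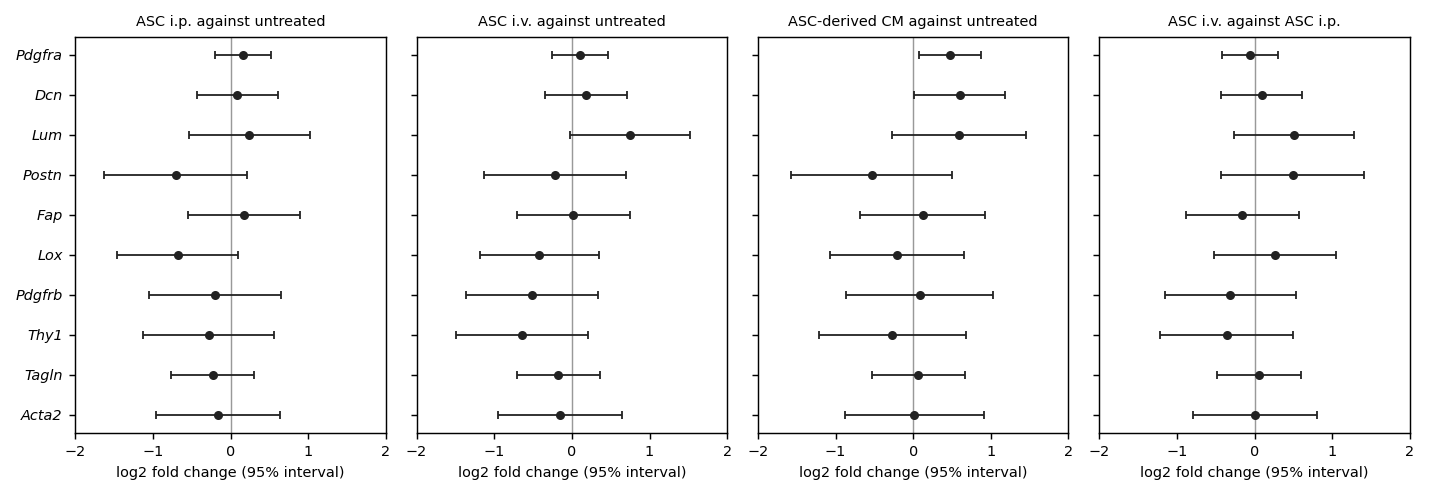
Log2 fold change of each of the 10 genes (points) with its 95% interval (bars) from the edgeR fit over 22 rats, 1 panel per comparison. The intervals of Pdgfra (0.07 to 0.87) and Dcn (0.01 to 1.18) after ASC-derived CM are the ones that lie wholly above 0, and neither gene passed adjustment.

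The larger differences lay between rats of the same group. Log2 CPM is the log2 of the count scaled to the total of the rat, with that total adjusted between rats by TMM normalization. Its SD over the 22 rats had a median of 0.68 over the 10 genes and 0.23 over all genes tested. Subtracting the group means left 0.69 and 0.23. Pdgfrb and Postn (both 0.79) and Thy1 (0.77) were the most variable, at percentiles 95.7, 95.8 and 95.3 of all genes. Pdgfra (0.34) had the lowest SD, at percentile 67.6. Among genes of like level the percentiles were 97.8 for Pdgfrb, 98.2 for Postn, 97 for Thy1 and 88 for Pdgfra, and the lowest was 57.5 for Fap. The spread within untreated rats was narrower, with a median SD over the 10 genes of 0.42 against 0.64 in the ASC i.p., 0.70 in the ASC i.v. and 0.66 in the ASC-derived CM group, while over all genes these medians were 0.17, 0.23, 0.23 and 0.22. This difference in spread was not tested.

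The same rats were low for many of the genes. On log2 CPM, ASC i.p. rat 3 lay below all 6 untreated rats for 9 of the 10 genes. ASC i.p. rat 1 and ASC i.v. rats 1 and 3 did so for 7 each, and ASC-derived CM rat 1 for 6. In these 5 rats 27.5% to 33.1% of all tested genes lay below all untreated rats and 24.3% to 27% above them, and 0 of the 10 genes lay above. On the same scale ASC-derived CM rat 3 lay above all untreated rats for 6 genes. Rat 4 of that group and ASC i.p. rat 6 did so for 4 each, against 11.5% to 14.8% of all genes in these rats. Pdgfra, Dcn and Lum lay together above the untreated log2 CPM range in some of the 16 treated rats. These were ASC i.p. rats 2 and 6, ASC i.v. rats 2 and 6 and ASC-derived CM rat 3. In TPM, Pdgfra of ASC i.p. rats 2 and 6 and ASC i.v. rat 2 (21.7, 26 and 22.8 TPM) stayed below the untreated maximum of 26.8 TPM. Acta2 lay above its untreated log2 CPM range in ASC-derived CM rat 3, ASC i.p. rat 5 and ASC i.v. rat 4. The low rats were rich in proximal tubule markers, with 5032 and 4490 TPM in ASC i.p. rats 1 and 3, 5443 and 3463 TPM in ASC i.v. rats 1 and 3 and 5213 TPM in ASC-derived CM rat 1, against 929 to 2454 TPM in untreated rats and 929 to 2927 TPM in the other treated rats. The part of this in the low levels was not tested.

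**Figure D3:**
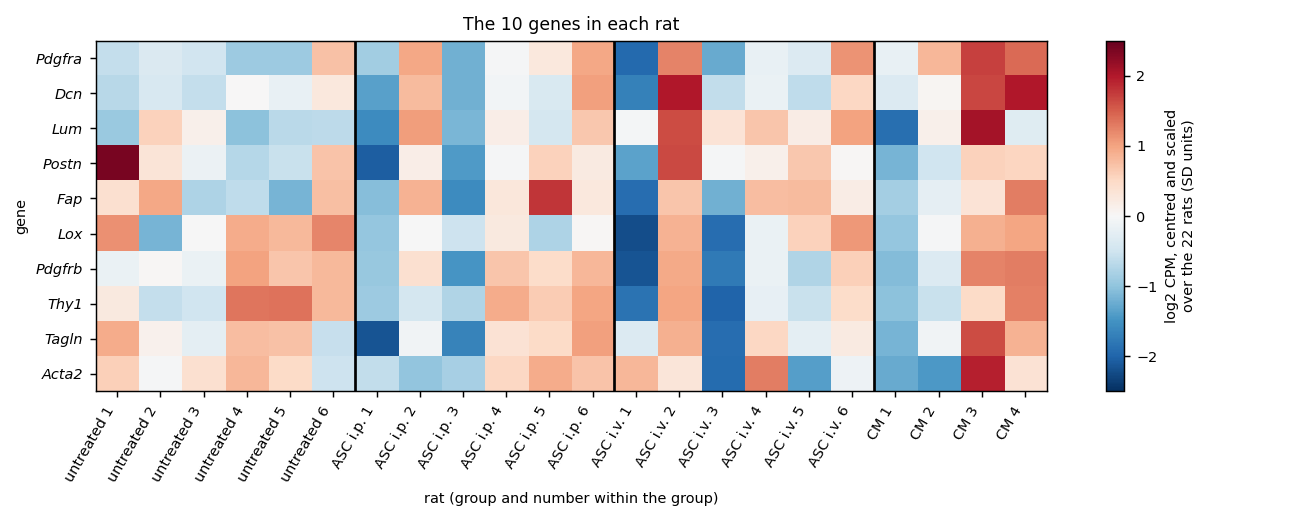
Log2 CPM of the 10 genes (rows), each centred and scaled over the 22 rats (colour, in SD units), with rats in columns by group. ASC i.p. rats 1 and 3, ASC i.v. rats 1 and 3 and ASC-derived CM rat 1 are blue for most genes, while Acta2 in ASC i.v. rat 1 is above its mean.

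Across rats the 10 genes varied together, in degrees that differed between pairs. Of their 45 pairs, 29 (64.4%) had a Pearson r of log2 CPM of 0.5 or more over the 22 rats, against 10.6% of all pairs of tested genes, and none was below 0. The median r was 0.54 against 0.00 over all pairs. Pdgfrb and Thy1 were the closest pair, with r = 0.92 and rho = 0.90 (permutation p 1e-05 for each, the smallest that 100000 permutations can give, adjusted p 0.000225 for r over the 45 pairs). Pdgfra and Dcn followed with r = 0.89 and rho = 0.86 (permutation p 1e-05 and 2e-05, adjusted p 0.000225 for r). After the group means were subtracted r was 0.91 and 0.88 for these pairs, and without the 2 rats farthest from the median of the first gene it was 0.87 and 0.84. Acta2 and Tagln had r = 0.74 and rho = 0.69 (permutation p 5e-05 and 0.00065, adjusted p 0.00045 for r), 0.76 within groups and 0.72 without 2 rats. Postn and Fap had r = 0.71 and rho = 0.78 (permutation p 0.00024 and 9e-05, adjusted p 0.00108 for r), 0.79 within groups and 0.80 without 2 rats.

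Acta2 had r of 0.29 or less with 6 of the other genes. Its r was 0.17 with Pdgfra (rho 0.07, permutation p 0.458 and 0.745), 0.28 with Dcn, 0.25 with Postn, 0.23 with Fap, 0.28 with Lox and 0.29 with Lum, and none of these 6 pairs passed adjustment over the 45 pairs. With Pdgfrb and Thy1 the r of Acta2 was 0.51 and 0.54, and both pairs passed adjustment (adjusted permutation p 0.0241 and 0.0193 for r), as did Acta2 with Tagln. Lum and Thy1 had the lowest r of all pairs at 0.12, which was -0.02 without 2 rats and 0.33 within groups. Whether these correlations differ from one another was not tested.

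The genes were also set against markers of other cell types. For each marker list the mean log2 CPM was set against each of the 10 genes over the 22 rats, which made 60 relations, and p-values were adjusted over all 60. Acta2 followed the smooth muscle contractile genes, among them Myh11 and Cnn1, with r = 0.86 and rho = 0.79 (permutation p 1e-05 and 2e-05, adjusted p 6e-05 and 0.0002), and r was 0.91 within groups and 0.86 without 2 rats. Its r was 0.75 with pericyte and mesangial and 0.76 with endothelial markers (rho 0.64 for both, adjusted permutation p 0.000225 and 0.00015 for r). It had r = 0.19 with macrophage and -0.02 with T lymphocyte markers. Pdgfra had r = 0.04 with smooth muscle markers, but 0.80 (rho 0.77, permutation p 1e-05 and 6e-05, adjusted p 6e-05 and 0.0004) with macrophage and 0.79 (rho 0.75, permutation p 4e-05 and 0.00012, adjusted p 0.00016 and 0.0006) with T lymphocyte markers. Without 2 rats these last r were 0.75 and 0.76, and within groups 0.88 and 0.84. Dcn went with it, with r = 0.17, 0.82 and 0.70 and rho = 0.09, 0.78 and 0.66 for the same lists. Thy1 and Pdgfrb followed the pericyte and mesangial list, among them Rgs5 and Notch3, with r = 0.94 and 0.90 and rho = 0.93 and 0.91 (permutation p 1e-05 for each, adjusted p 6e-05 for r), and 0.92 and 0.89 without 2 rats. Their r with the endothelial list was 0.89 and 0.83, and rho 0.89 and 0.78 (adjusted permutation p 6e-05 and 0.000109 for r). With macrophage markers r was 0.70 for Thy1 and 0.85 for Pdgfrb (rho 0.62 and 0.76, adjusted permutation p 0.0006 and 6e-05 for r). Tagln had r = 0.79 with pericyte and mesangial, 0.81 with endothelial, 0.61 with smooth muscle and 0.59 with macrophage markers (rho 0.78, 0.76, 0.61 and 0.55), and each passed adjustment. Whether a gene's r differs between lists, or a list's between genes, was not tested. The r of Thy1 with the T lymphocyte list was 0.39 (rho 0.29, permutation p 0.0726 and 0.185, adjusted p 0.101 and 0.232) and 0.09 without 2 rats.

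Postn and Fap ran against the proximal tubule markers, with r = -0.76 (rho -0.67, permutation p 4e-05 and 0.00084, adjusted p 0.00016 and 0.00336) and r = -0.69 (rho -0.66, permutation p 0.00043 and 0.00111, adjusted p 0.00129 and 0.00392). Without 2 rats r was -0.70 and -0.66, and within groups -0.76 and -0.74. Acta2 did not follow them, with r = -0.04. Over the 10 genes the median r was 0.73 for macrophage, 0.64 for pericyte and mesangial, 0.60 for endothelial, 0.57 for T lymphocyte, 0.20 for smooth muscle and -0.37 for proximal tubule markers, and over all tested genes these medians lay between -0.09 and 0.09. In all, 8 of the 10 genes had r of 0.5 or more with macrophage markers, against 19.4% of all genes, 8 with endothelial markers, against 21.1%, 7 with pericyte and mesangial markers, against 20.9%, 7 with T lymphocyte markers, against 14.7%, and 3 with smooth muscle markers, against 1.62%. With proximal tubule markers, 2 of the 10 genes had r of -0.5 or less, against 14.3% of all genes. The lists share no gene with the 10 genes. Genes of many kinds varied with the same rats, and what part the makeup of the tissue piece had in these relations was not tested.

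**Figure D4:**
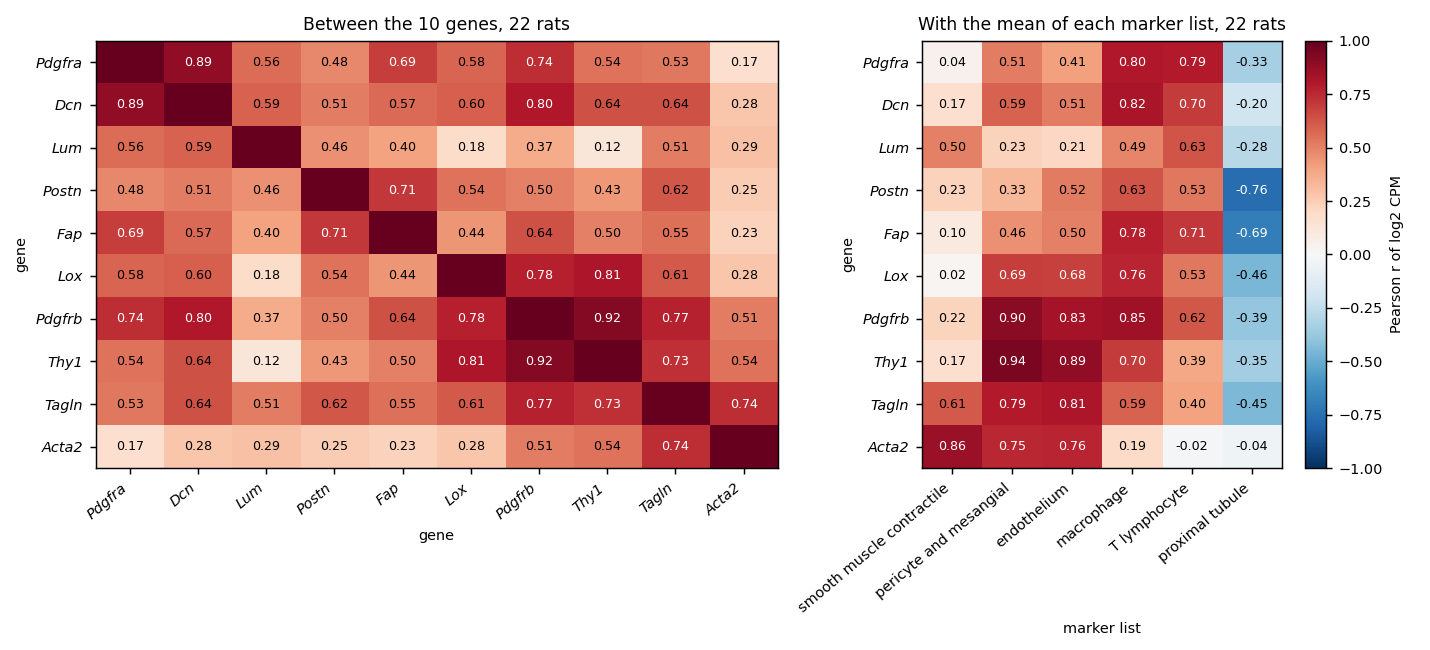
Pearson r of log2 CPM over the 22 rats between the 10 genes (left) and between each gene and the mean of each marker list (right), coloured from -1 (blue) to 1 (red). Acta2 is pale against Pdgfra (0.17) and dark against smooth muscle markers (0.86), and Pdgfra is the reverse with 0.04 against smooth muscle and 0.80 against macrophage markers.

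Summed marker levels overlapped between groups for all lists. All 10 smooth muscle genes were found, at 384 to 549 TPM in untreated rats, 236 to 553 TPM after ASC i.p., 292 to 632 TPM after ASC i.v. and 245 to 836 TPM after ASC-derived CM. The 9 pericyte and mesangial genes summed to 144 to 290 TPM in untreated rats and 104 to 275, 62.5 to 214 and 83.7 to 331 TPM in the treated groups in the same order. The 6 endothelial genes summed to 191 to 276 TPM, and 120 to 273, 82.4 to 268 and 110 to 277 TPM. The 7 macrophage genes summed to 505 to 725 TPM, and 322 to 877, 210 to 860 and 347 to 963 TPM. The 5 T lymphocyte genes summed to 89.8 to 153 TPM, and 72.5 to 223, 38.7 to 202 and 64.7 to 195 TPM. The 4 adipocyte genes summed to 23.8 to 47.8 TPM, and 32.6 to 76.7, 33.9 to 83 and 27 to 87 TPM, and Msln, the mesothelial marker found, lay between 10.5 and 53.9 TPM. Among the defining markers, Upk2, Upk3a, Krt5, Krt15 and Plin1 were at 0 in some rats.

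The genes most like each member over the 22 rats were named by the highest Pearson r, 3 for each. Acta2 was nearest to Mustn1 (0.95), Sparcl1 (0.94) and Jph2 (0.93), and Tagln to Nfatc4 (0.95), Rasip1 (0.91) and Ehd2 (0.90). Pdgfra was nearest to Adra2a (0.93), the chemokine Cxcl14 (0.89) and Dcn itself, and Pdgfrb to Abca8a (0.97), Eng (0.96), which encodes endoglin, and Lrp1 (0.96). Dcn was nearest to C1qtnf5, Clec11a and Frzb (0.90 each), and Lum to Des (0.83), the muscle filament desmin, Emp2 (0.82) and Flt3lg (0.80). Postn was nearest to the growth factor Igf1 (0.94), Nradd and Sox4 (0.88 each). Thy1 was nearest to Cd248 (0.96), which encodes endosialin, Tmem204 (0.95) and Meis2 (0.94). Fap was nearest to Mmp19, Cerk and Pla1a (0.87 each), and Lox to Axl, Prkd3 and Csf1 (0.86 each). The mean of the 10 scaled genes was nearest to Sdc3, Htra3, Map7d1 and Col6a2 (0.97 each), then Fbln1, Aebp1 and C1r (0.96 each) and Dkk3, Olfml2b and Rcn3 (0.95 each). These are the highest of 12867 or fewer values, so they describe these 22 rats.

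Other genes of the same pathways also had no call. Their ASC i.v. values below include the 3 rats with urothelial markers, and no fit without those rats is given for them. edgeR and DESeq2 called 0 genes in each of 6 pathway lists in each comparison. Of the 4 PDGF ligand genes, Pdgfb, which signals through both receptors, had 74 ± 18.7 TPM (SD, n = 6) in untreated rats and 50.7 ± 15.8 TPM (SD, n = 6) after ASC i.v., a change of -0.44 (SE 0.18) with an unadjusted edgeR p of 0.0234 and an adjusted p of 0.523. The Pdgfb change was -0.34 after ASC i.p. and -0.38 after ASC-derived CM. Pdgfa was at 44.7 ± 4.92 TPM (SD, n = 6) in untreated rats and 44.9 ± 7.92 TPM (SD, n = 6) after ASC i.v. All 4 other lysyl oxidase family genes were fitted lower than in untreated rats under every treatment, with medians of -0.29, -0.38 and -0.16. Among them Loxl1, which acts on elastin, had 129 ± 28.6 TPM (SD, n = 6) in untreated rats and 91.1 ± 45.1 TPM (SD, n = 6) after ASC i.v., a change of -0.40 (SE 0.26, edgeR adjusted p 0.542). The Loxl1 change was -0.215 after ASC i.p. and -0.185 after ASC-derived CM. Loxl2 was at 14.1 ± 6.32 TPM (SD, n = 6) in untreated rats.

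Of the small leucine-rich proteoglycans other than Dcn and Lum, 6 of 8 were tested, and 6, 6 and 3 of them were fitted lower in the 3 treated groups in the order above. Bgn, which encodes biglycan, had 494 ± 113 TPM (SD, n = 6) in untreated rats and 386 ± 103 TPM (SD, n = 6) after ASC i.p. (edgeR adjusted p 0.771), and Prelp had 82.5 ± 9.68 TPM (SD, n = 6) in untreated rats. The Bgn changes were -0.28, -0.29 and -0.01 in the same order. Of 17 tested fibroblast matrix genes, 6, 9 and 13 were fitted higher, with medians of -0.09, 0.05 and 0.24. Sparc, a collagen-binding protein, had 882 ± 205 TPM (SD, n = 6) in untreated rats and 622 ± 271 TPM (SD, n = 6) after ASC i.v. (edgeR adjusted p 0.537), while Dpt, which encodes dermatopontin, had 158 ± 12.6 and 152 ± 74.2 TPM (SD, n = 6 each). The Sparc changes were -0.31, -0.395 and -0.34 in the 3 treated groups. Of 8 fibroblast identity genes, 4, 4 and 6 were fitted higher. Vim, the filament vimentin, had 617 ± 97.1 TPM (SD, n = 6) in untreated rats and 443 ± 123 TPM (SD, n = 6) after ASC i.v., a change of -0.37 (SE 0.16, edgeR adjusted p 0.523). Its change was -0.33 after ASC i.p. and -0.38 after ASC-derived CM. The chemokine Cxcl12 had 237 ± 31.1 TPM (SD, n = 6) in untreated rats and 302 ± 54.7 TPM (SD, n = 4) after ASC-derived CM, a change of 0.42 (SE 0.21, edgeR adjusted p 0.711). Cxcl12 had 238 ± 80.7 TPM after ASC i.p. and 230 ± 80.9 TPM after ASC i.v. (SD, n = 6 each), changes of 0.07 and 0.06. Of 14 tested myofibroblast regulators, 11, 13 and 10 were fitted lower, with medians of -0.12, -0.18 and -0.08, and over all genes 53.8%, 52.5% and 50.9% were fitted lower. Ccn2, a matrix growth factor induced by TGF-beta, had 204 ± 84.9 TPM (SD, n = 6) in untreated rats and 130 ± 62.7 TPM (SD, n = 4) after ASC-derived CM (change -0.58, SE 0.37, edgeR adjusted p 0.757), and Tgfb1 itself had 121 ± 13.1 and 127 ± 40.8 TPM in the same groups. The Ccn2 change was -0.22 after ASC i.p. and -0.465 after ASC i.v.

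The labels number the animals from 1 to 24 without saying what the order stands for, and 3 of the 6 untreated rats hold numbers 22 to 24, while the 5 low rats hold numbers 2 to 9. Over the 22 rats the animal number had r = 0.69 and rho = 0.73 with Pdgfrb (permutation p 0.00041 and 0.00018, adjusted p 0.0027 and 0.0018 over 10 genes) and r = 0.69 and rho = 0.70 with Thy1 (permutation p 0.00054 and 0.00057, adjusted p 0.0027 and 0.00285), and r within groups was 0.66 and 0.65. For Lox r was 0.53 and rho 0.52 (permutation p 0.0119 and 0.0143, adjusted p 0.0396 and 0.0476), and the other 7 genes did not pass adjustment. Without the 2 rats farthest from the median number r was 0.73 for Pdgfrb, 0.76 for Thy1 and 0.66 for Lox. Over all tested genes the median r with the animal number was 0.08, and 16% of genes had r of 0.5 or more. With the animal number as a covariate the ASC i.p. changes turned to 0.13 for Pdgfrb and 0.025 for Thy1, the ASC i.v. changes were -0.051 in place of -0.51 for Pdgfrb and -0.17 in place of -0.64 for Thy1, and 0 of the 10 genes were called in any comparison. What the animal number stands for was not tested.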

How the data were processed

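Left kidneys were snap-frozen and their total RNA sequenced on the BGISEQ-500 platform. The labels gave each rat's group and animal number. Rats given ABCB5+ cells or their medium, and other rats of the ASC-derived CM group, were not analysed here. The authors deposited an estimated count per rat Entrez gene, not normalized, and a TPM value per gene, scaled by the authors for transcript length and total, which summed to 959754 to 968550 per rat. The submitters' processing notes name Trim Galore 0.6.4, kallisto 0.4.6 and the build rn6. Strand setting, library kit and the treatment of reads shared by similar genes are not given in the sources used here. Rounding was needed because 14.1% of counts were not whole. Symbols were found for 17179 of 17334 genes in the RefSeq table of GRCr8, used for names, and 155 stayed unnamed.

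R 4.3.3 and edgeR 4.0.16 were used for the counts (filterByExpr, TMM, 1 fit over 4 groups, two-sided quasi-likelihood F test), and Benjamini-Hochberg adjustment covered all 12867 genes, with calls under 0.05. A prior count of 2 was added for log2 CPM. Correlations over rats used 100000 two-sided permutations, and promoter stretches were taken from RefSeq. The procedure was tested on simulated counts drawn with the same dispersion for every gene. That test does not show what changes could be found in genes as variable as the members. No 2 rats of a group agreed within sampling noise (chi-square per gene 7.29 to 145). Counting error alone is covered by statements on depth. Each rat is a separate animal, so no comparison was paired.

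The genes named were the 10 members, the 2 genes with the highest mean TPM of each pathway list, any list gene past the threshold (none), the defining markers, and the genes with the highest r. The members and lists were chosen with earlier results of these data known, from general knowledge. The other settings were RLE size factors, DESeq2 1.42.0, a fit on the 2 groups compared, no filter or at least 10 counts in every rat, limma 3.58.1 with a trend on log2 TPM (pseudocount 1 or 0.1), 1 surrogate variable from sva 3.50.0, and each rat left out. Chosen after seeing the data were the animal number or the proximal tubule markers as a covariate, and the omission of the rats with over 100 TPM of urothelial markers.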

Additional observations from a re-analysis of the deposited data

Results flagged for a closer look

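Of 40 sets of values (10 genes in 4 groups), 1 held a rat far from the others of its group, and chance flags about 1 in 20. Pdgfra in untreated rat 6 was at 6.91 log2 CPM (26.8 TPM), the highest of its group, where the next rat was at 6.54 and the lowest at 6.36. The gap to the next rat was 0.67 of the range of the group.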

How the results depend on the processing

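The count of 0 genes called among the 10 held under all 54 other settings and all 68 fits without 1 rat, where each comparison counts once. The lowest edgeR adjusted p among the 10 genes came with 1 surrogate variable after ASC-derived CM (0.107). In that fit all 10 genes were fitted higher and 4 had an unadjusted p under 0.05, with no share of all genes given beside it. With the proximal tubule markers as a covariate the lowest edgeR adjusted p was 0.227, again with all 10 fitted higher. At least 10 counts in every rat left Fap out. The count of 29 pairs with r of 0.5 or more lay between 21 and 34 under 5 other settings and between 24 and 32 without 1 rat.

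Fitted changes turned sign in 42 of 436 other fits and in 41 of 460 fits without 1 rat, none of them called, and the cause was not tested. All values are log2 changes, against untreated rats unless both groups are named. With 1 surrogate variable the turned values were Acta2 0.006, Pdgfrb 0.23 and Thy1 0.16 after ASC i.p., and Acta2 0.14, Postn 0.38 and Tagln 0.16 after ASC i.v., and Postn 0.004, Thy1 0.17 and Lox 0.21 after ASC-derived CM. On log2(TPM + 1) the turned values were Dcn -0.056 after ASC i.p., and Pdgfra -0.041, Dcn -0.032 and Fap -0.044 after ASC i.v., and Acta2 -0.33, Pdgfrb -0.13 and Tagln -0.058 after ASC-derived CM, and Acta2 -0.11 in ASC i.v. against ASC i.p.. On log2(TPM + 0.1) the turned values were Dcn -0.056 after ASC i.p., and Pdgfra -0.045, Dcn -0.033 and Fap -0.12 after ASC i.v., and Acta2 -0.34, Pdgfrb -0.14 and Tagln -0.058 after ASC-derived CM, and Acta2 -0.11 in ASC i.v. against ASC i.p.. With the animal number as a covariate the turned values were Pdgfrb 0.13 and Thy1 0.025 after ASC i.p., and Acta2 0.064 after ASC i.v., and Acta2 -0.003 after ASC-derived CM. With proximal tubule markers as a covariate the turned values were Postn 0.24 after ASC i.v., and Postn 0.31, Thy1 0.064 and Lox 0.19 after ASC-derived CM. Without ASC i.v. rats 1, 3 and 5 the turned values were Acta2 0.16, Pdgfrb 0.071, Postn 0.065, Lox 0.010 and Tagln 0.10 after ASC i.v., and Pdgfra 0.22, Pdgfrb 0.26, Thy1 0.17 and Fap 0.12 in ASC i.v. against ASC i.p.. Ranges without 1 rat that span 0 follow. After ASC i.p. they were -0.039 to 0.19 for Dcn and -0.071 to 0.33 for Fap. After ASC i.v. they were -0.38 to 0.019 for Acta2, -0.001 to 0.20 for Pdgfra, -0.54 to 0.32 for Postn, -0.086 to 0.30 for Dcn and -0.093 to 0.17 for Fap. After ASC-derived CM they were -0.65 to 0.27 for Acta2, -0.17 to 0.33 for Pdgfrb, -0.73 to 0.001 for Postn, -0.12 to 0.88 for Lum, -0.15 to 0.28 for Fap, -0.39 to 0.005 for Lox and -0.17 to 0.25 for Tagln. In ASC i.v. against ASC i.p. they were -0.21 to 0.18 for Acta2, -0.17 to 0.035 for Pdgfra, -0.18 to 0.22 for Dcn, -0.31 to 0.091 for Fap and -0.075 to 0.20 for Tagln. Depth limits Fap most, with as few as 8 counts in a rat.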
